A study of Mus musculus with 6 samples.

Results

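The 10 genes described here are the glucose transporter gene *Slc2a1* and the glycolysis genes *Hk2*, *Pfkl*, *Aldoa*, *Tpi1*, *Gapdh*, *Pgk1*, *Eno1*, *Pkm* and *Ldha*, taken by name from the 54446 genes listed in mouse activated B cells. All 10 averaged 10 normalized counts or more over the libraries, the limit above which 12322 genes were tested. Naive B cells were taken from spleens of *Tent5c* KO and WT littermates of mixed C57BL/6J X CBA strain, aged 12 to 15 weeks, by a negative magnetic selection. Cells of both genotypes were activated in culture for 7 days with 20 ng/ml IL-4, a T helper cell cytokine, and 20 ug/ml LPS, a bacterial endotoxin, and their ribosomal RNA was depleted before strand-specific sequencing. TENT5C is a poly(A) polymerase of the cytoplasm, and the comparison asks how its loss changes RNA levels. There were 3 libraries of each genotype, and libraries with the same number came from one KO and one WT littermate, called a pair below. The recovered depth was 5393558 to 6793520 fragments on genes per library.

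*Tent5c* itself was at 1993, 993 and 1170.4 normalized counts in KO-labelled libraries (pairs 1, 2 and 3), and at 1255, 767 and 1584.5 in WT-labelled ones. In pairs 1 and 2 its mRNA was higher under the label KO than under WT, so its mRNA level does not decide on the labels. The groups are called by their labels throughout. The log2 fold change was 0.20, with a 95% interval from -0.26 to 0.66 and an adjusted *p* of 0.970 in limma.

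The labelled cell type was checked against marker genes. The 10 B cell genes summed to 33904, 34178 and 38662 normalized counts in KO-labelled libraries, and to 36572, 36723 and 32158 in WT-labelled ones, led by *Ms4a1* at 9152 to 12045. The 10 genes of plasma cells, the antibody-secreting stage, summed to 24561, 15369 and 18534 in KO-labelled libraries, and to 20001, 15583 and 28693 in WT-labelled ones, with *Xbp1* as the most abundant. They were highest in the library labelled WT of pair 3 and the library labelled KO of pair 1, which gave log2 ratios of 0.30, -0.02 and -0.63 in pairs 1, 2 and 3. *Jchain* had a log2 fold change of -0.47 (interval -1.26 to 0.32) and *Mzb1* one of -0.33 (interval -0.60 to -0.06, adjusted *p* = 0.970 in limma). The part of these cells in the levels of glycolysis genes was not tested. Of the B cell genes, all 10 were tested, 6 above and 4 below 0, with a median of 0.06. *Cr2* had a log2 fold change of 0.83 (interval 0.35 to 1.30, adjusted *p* = 0.737 in limma) and *Ebf1* one of 0.22. *Cd79a*, named after its values were seen, was the 1 B cell gene lower in all 3 pairs, without overlap of the groups, at -0.21 (interval -0.40 to -0.01, adjusted *p* = 0.970 in limma). *Cr2* and *Fcer2a* (0.17, interval -0.02 to 0.37), the latter also named after its values were seen, were the 2 higher in all 3 pairs. Of all genes tested, 13.1% were lower and 11.7% higher in all 3 pairs, and 3.44% were lower without overlap. Of the plasma cell genes, 9 were tested, 4 above and 5 below 0, with a median of -0.01.

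Markers of other cells were low. The 9 T cell genes summed to 299, 353 and 408 in KO-labelled libraries, and to 320, 456 and 478 in WT-labelled ones, nearly all of it *Thy1* at 275 to 445, while *Cd3e* was at 0 to 4.82. Only *Thy1* was tested, with a log2 fold change of -0.20 (interval -0.42 to 0.03). The 10 myeloid genes summed to 158, 67.7 and 133 in KO-labelled libraries, and to 119.9, 117 and 166 in WT-labelled ones, led by *Cd68* (log2 fold change -0.50) and *Lyz2* (-0.54), with *Elane*, *S100a8* and *S100a9* at 0 in all 6. Of the myeloid genes 3 were tested, all below 0 in the main fit and 0 called, with a median of -0.50, but *Lyz2* was at 0.0179 in edgeR and at 0.62 without replicate 2, and the myeloid sum was higher in the KO-labelled library of pair 1 (log2 ratio 0.39). The 7 erythroid genes summed to 0 to 5.72, with *Klf1* as the most abundant and *Hba-a1* at 0 in all 6, and 0 were tested. The 10 proliferation genes summed to 16751, 18764 and 16143 in KO-labelled libraries, and to 14979.9, 17304 and 16291 in WT-labelled ones. Of these, 8 were above and 2 below 0 and 4 of the 10 were higher in all 3 pairs, against 11.7% of all genes tested. The median log2 fold change of the 10 genes was 0.08 and 0 were called. *Top2a*, their most abundant gene, had a log2 fold change of 0.11 (interval -0.03 to 0.25), *Mki67* one of 0.13 and *Birc5* one of 0.18.

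Glycolysis splits glucose into pyruvate in the cytosol, and lactate dehydrogenase turns pyruvate into lactate to restore the cofactor that the pathway uses up. Resting B cells run it slowly. Activation raises glucose uptake and glycolytic enzymes, under transcription factors such as MYC and HIF-1, to supply energy and carbon for growth and division.

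The glycolysis genes had similar levels under both labels. The groups overlapped for all 10 genes, and the fitted log2 fold changes lay between -0.08 (*Pkm*) and 0.09 (*Pfkl*), with a median of -0.00200. The 95% intervals of the 10 genes together spanned a KO/WT ratio from 0.835, the lower bound of *Pkm*, to 1.25, the upper bound of *Pfkl*. With 3 pairs, a difference within the interval of a gene cannot be told from none, and each interval was narrower than these joint bounds. In bulk samples, fewer cells that express a gene and less RNA per cell cannot be told apart.

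*Slc2a1* (ENSMUSG00000028645) encodes GLUT1, a transporter that brings glucose into the cell, and lies on chromosome 4 at 119108711-119137983 (GRCm38, forward strand). Its normalized counts were 184, 148 and 194 in KO-labelled libraries of pairs 1, 2 and 3, and 178, 148 and 202 in WT-labelled ones. Both libraries of pair 2 were the lowest, and the groups overlapped. The means were 175 ± 24.5 and 176 ± 27.0 (SD, n = 3 each), and the KO/WT ratio was 0.995, with a 95% interval from 0.846 to 1.17 (adjusted *p* = 0.997 in limma). *Hk2* (ENSMUSG00000000628) encodes hexokinase 2, which traps glucose in the cell as glucose 6-phosphate (chromosome 6, 82725025-82774454, reverse strand). Libraries labelled KO had 462, 531 and 568 normalized counts of *Hk2*, and libraries labelled WT had 495, 481 and 532. The lowest and the highest value both belonged to libraries labelled KO, of pairs 1 and 3, and enclosed all 3 labelled WT. *Hk2* was at 521 ± 53.7 against 503 ± 26.5, a log2 fold change of 0.05 with an interval from -0.14 to 0.24 (adjusted *p* = 0.974 in limma). *Pfkl* (ENSMUSG00000020277) encodes the liver-type subunit of phosphofructokinase, which commits sugar to the pathway (chromosome 10, 77986947-78010083, reverse strand). It had 223, 313 and 309 normalized counts in KO-labelled libraries, and 219, 318 and 254 in WT-labelled ones. Both libraries of pair 1 were lowest, and pair 3 gave the largest log2 ratio of any glycolysis gene in a pair, 0.28. The means of *Pfkl* were 281 ± 50.8 and 264 ± 50.1, with a ratio of 1.07 and an interval from 0.907 to 1.25 (adjusted *p* = 0.970 in limma).

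*Aldoa* (ENSMUSG00000030695) encodes aldolase A, which cleaves the 6-carbon sugar into a pair of 3-carbon sugars, and lies on chromosome 7 at 126795234-126800751 on the reverse strand. It had 2716, 2981 and 3088 normalized counts in KO-labelled libraries, against 2761, 3036 and 3291 in WT-labelled ones. The library labelled KO was below its partner in all 3 pairs, while the groups overlapped. The log2 ratios of *Aldoa* were -0.02, -0.03 and -0.09 in pairs 1, 2 and 3, and the fitted KO/WT ratio was 0.968, with an interval from 0.880 to 1.06 (adjusted *p* = 0.970 in limma). A second identifier with the same symbol, at 126800790-126809108, had 4.72, 5.72 and 4.54 normalized counts in KO-labelled libraries and 1.89, 3.14 and 2.41 in WT-labelled ones. The groups did not overlap, but those values are 2 to 6 fragments each and did not pass the filter. *Tpi1* (ENSMUSG00000023456) encodes triosephosphate isomerase, which interconverts the products of aldolase (chromosome 6, 124810586-124814296, reverse strand). Its values were 946, 1197 and 1028 in KO-labelled libraries, and 1028, 1111 and 1068 in WT-labelled ones. The libraries labelled KO of pairs 1 and 2 were the lowest and the highest of all 6. The means of *Tpi1* were 1057 ± 128 and 1069 ± 41.5, with a ratio of 0.984 and an interval from 0.876 to 1.11 (adjusted *p* = 0.989 in limma). *Gapdh* (ENSMUSG00000057666) encodes glyceraldehyde 3-phosphate dehydrogenase, whose step reduces the cofactor, and its mRNA is widely used as a reference in RT-qPCR (chromosome 6, 125161715-125166467, reverse strand). Libraries labelled KO had 2483, 2552 and 2722 normalized counts, and libraries labelled WT had 2504, 2356 and 2657. The lowest was the library labelled WT of pair 2, and the 6 values differed by at most 1.16-fold. The means of *Gapdh* were 2586 ± 123 and 2505 ± 151, a ratio of 1.03 with an interval from 0.935 to 1.14 (adjusted *p* = 0.970 in limma). *Actb*, the cytoskeletal actin gene and another usual reference, had means of 35978 ± 1978 and 35966 ± 1868, with an interval of the log2 fold change from -0.19 to 0.19.

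*Pgk1* (ENSMUSG00000062070) encodes phosphoglycerate kinase 1, the first step that yields ATP, and lies on chromosome X at 106187100-106203699 on the forward strand. Its normalized counts were 990.0, 959 and 866 in KO-labelled libraries, and 912, 925 and 939 in WT-labelled ones. The 3 libraries labelled WT lay inside the range of KO-labelled ones. The KO/WT ratio of *Pgk1* was 1.01, with an interval from 0.898 to 1.14 (adjusted *p* = 0.992 in limma). *Eno1* (ENSMUSG00000063524) encodes enolase 1, which makes phosphoenolpyruvate (chromosome 4, 150236721-150248879, forward strand). It had 718, 767 and 675 normalized counts in KO-labelled libraries, and 727, 739 and 687 in WT-labelled ones. Both libraries of pair 2 were highest and both of pair 3 lowest, so that the pairs differed more than the groups. Of the 10 genes, *Eno1* had the fitted log2 fold change closest to 0, with a ratio of 1.00 and an interval from 0.900 to 1.12 (adjusted *p* = 0.997 in limma).

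*Pkm* (ENSMUSG00000032294) encodes the muscle-type pyruvate kinase, which yields ATP and pyruvate, and lies on chromosome 9 at 59656368-59679375 on the forward strand. It had 4844, 5464 and 4733 normalized counts in KO-labelled libraries, and 5418, 5082 and 5348 in WT-labelled ones. The libraries labelled KO of pairs 1 and 3 were the lowest of all 6, and that of pair 2 was the highest. The means of *Pkm* were 5014 ± 393 and 5283 ± 177, with a ratio of 0.948 and an interval from 0.835 to 1.08 (adjusted *p* = 0.970 in limma). Its splice forms were not separated, since the values are per gene. *Ldha* (ENSMUSG00000063229) encodes the A subunit of lactate dehydrogenase (chromosome 7, 46841475-46855627, forward strand). Its values were 1962, 2440.2 and 1961 in KO-labelled libraries, and 1965, 2279 and 2129 in WT-labelled ones. Both libraries of pair 2 were the highest, and the groups overlapped. The means of *Ldha* were 2121 ± 276 and 2124 ± 157, and the ratio was 0.995, with an interval from 0.892 to 1.11 (adjusted *p* = 0.995 in limma).

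**Figure D1:**
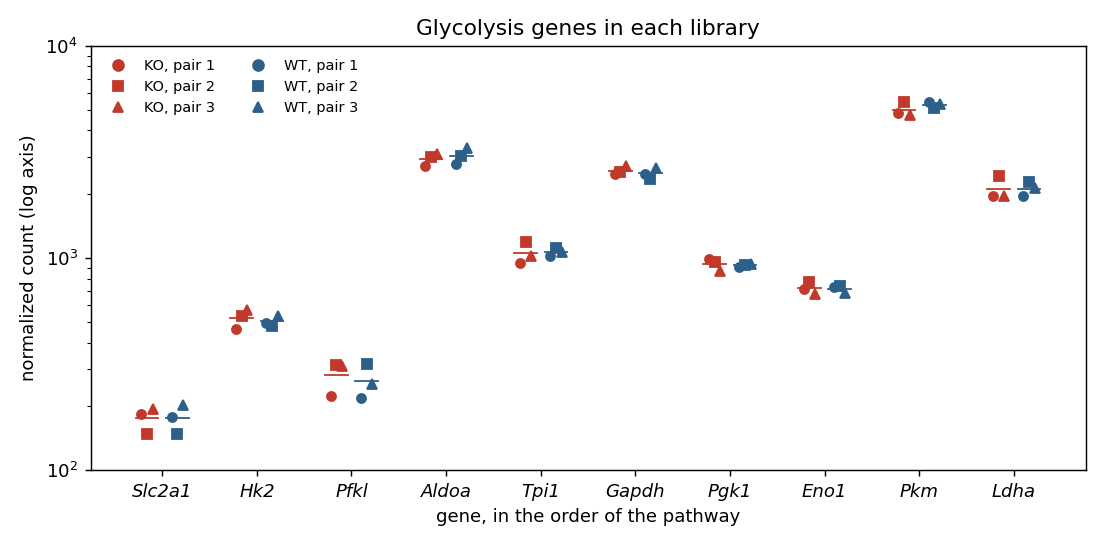
Normalized count of each glycolysis gene (log axis) in the 3 libraries labelled KO and the 3 labelled WT, with a short line at each group mean and one marker shape per pair. The points of the groups overlap for all 10 genes, from *Slc2a1* at 148 to 202 up to *Pkm* at 4733 to 5464.

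Within pairs, the direction of the genes was not the same. In pair 1, 7 of the 10 genes were lower in the library labelled KO and 3 higher, with a median log2 ratio of -0.01. In pair 2, 7 were higher and 3 lower, with a median of 0.08. In pair 3, 7 were lower and 3 higher, with a median of -0.06. *Pkm* was the lowest in pairs 1 and 3, at -0.16 and -0.18, and stood at 0.10 in pair 2. *Hk2* was the highest in pair 2, at 0.14, and stood at -0.10 in pair 1.

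**Figure D2:**
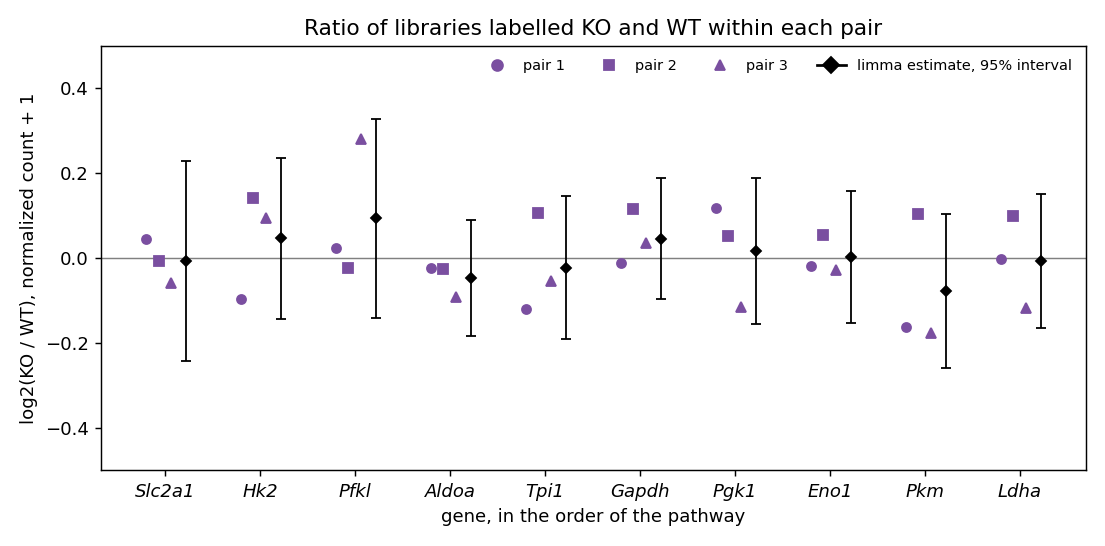
Log2 ratio of the library labelled KO to the library labelled WT within each pair (purple) for each glycolysis gene, with the limma estimate over the 3 pairs and its 95% interval (black). Every interval includes 0, and only *Aldoa* has all 3 pairs on one side of 0.

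Read against all genes tested, the glycolysis genes did not stand out. *Aldoa* alone, 1 of the 10, was lower in the library labelled KO in all 3 pairs, and 13.1% of the 12322 genes were. None of the 10 was higher in all 3 pairs, against 11.7% of genes. The groups did not overlap for 3.44% of genes on the lower and 3.39% on the higher side, and for 0 of the 10. At an unadjusted *p* under 0.05 in limma, 3.03% of genes were lower and 1.67% higher, again with 0 of the 10. Over all genes, limma called 0% lower and 0% higher at an adjusted *p* under 0.05, as did edgeR on the recovered fragments (0% and 0%). DESeq2 called 0.222% lower and 0.0101% higher of the 9894 genes it gave an adjusted *p*, with 0 of the 10 among them. In the fit without replicate 1, limma called 168 lower and 3 higher, none of them a glycolysis gene. The median absolute log2 fold change was 0.0345 over the 10 genes and 0.0923 over all genes tested. All but *Slc2a1* had a mean above the median gene tested, with *Slc2a1* at percentile 49.6, *Pfkl* at 61.8 and *Pkm* at 99.0, and the part of expression level in the small differences was not tested.

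Together the 10 genes took 0.247%, 0.277% and 0.262% of the fragments on genes in KO-labelled libraries, and 0.257%, 0.259% and 0.263% in WT-labelled ones. The share was highest and lowest in libraries labelled KO, of pairs 2 and 1. Its log2 ratios were -0.06, 0.10 and -0.01 in pairs 1, 2 and 3, a mean of 0.01 ± 0.08 (SD, n = 3 pairs). *Pkm* held 31.3% of the fragments of the 10 genes on average, *Aldoa* 18.1%, *Gapdh* 15.5% and *Ldha* 12.9%.

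Levels of different genes are compared per kb of their merged exons. On this scale the order was *Pkm* (1029 normalized counts per kb), *Aldoa* (1023), *Ldha* (641), *Gapdh* (616), *Pgk1* (415), *Tpi1* (386), *Eno1* (134), *Hk2* (85.7), *Slc2a1* (50.2) and *Pfkl* (40.8). The ranges over the 6 libraries overlapped between *Pkm* and *Aldoa*, between *Ldha* and *Gapdh*, between *Pgk1* and *Tpi1*, and between *Slc2a1* and *Pfkl*, and the other neighbours did not overlap. This is an order of the 10 chosen genes and not of the steps, since other genes serve them too. *Slc2a6*, of the same transporter family as *Slc2a1*, was at 393 per kb of merged exons, above *Eno1*, but its part in glucose uptake was not tested. Its range of 372 to 416 overlapped that of *Tpi1* (344 to 435). Merged exons include retained introns, which make *Gapdh* 4133 bases long against 1420 for its principal coding transcript. Per kb of the principal transcript, a scale added after seeing the data, *Pkm* (2117) and *Aldoa* (1923) still led. *Gapdh* (1793) then came before *Ldha* (1202), *Tpi1* (662) before *Pgk1* (511), and *Pfkl* (73.1) before *Slc2a1* (54.0), with *Eno1* at 355 and *Hk2* at 92.8.

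Over the 6 libraries the genes did not vary as one. *Tpi1* and *Ldha* were the most alike, with a Pearson correlation of 0.92 over the 6 libraries, and *Slc2a1* and *Eno1* the most opposed, at -0.90. These are descriptions over libraries that share littermates and a scaling. The mean standardized level of the 10 genes was highest in the library labelled KO of pair 2 (0.63) and lowest in that of pair 1 (-0.56). The tested genes outside the 10 whose levels over the 6 libraries were most like that mean were *Ehmt2* (Pearson's r = 0.996), *Fkbpl* (0.996), *Hdac2* (0.989), *Sucla2* (0.978) and *M6pr* (0.977). They were picked from all genes tested as the most alike, and with 6 libraries such values are a description.

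Most steps are served by several isozymes, and their make-up showed which of them had RNA in these cells. Of the hexokinase level per kb, *Hk2* made up 76.0% ± 1.87 in KO-labelled libraries and 77.6% ± 2.36 in WT-labelled ones (SD, n = 3 each), and *Hk1* 23.3% ± 1.35 and 22.1% ± 2.22. *Hk3* was at 0 to 3.78 normalized counts. *Pfkl* was not the leading phosphofructokinase gene. The platelet-type *Pfkp* held 52.7% ± 8.85 and 52.2% ± 6.30 of that family, *Pfkl* 30.2% ± 4.25 and 30.8% ± 4.22, and the muscle-type *Pfkm* 17.1% ± 5.56 and 17.0% ± 2.19. *Aldoa* held 93.7% ± 0.937 and 94.6% ± 1.67 of the aldolase level, and *Aldoc* was the other gene of that family with a mean of at least 10. *Eno1* held 57.0% ± 7.96 and 60.2% ± 6.34 of the enolase level, with *Eno2* at 24.4% ± 3.82 and 22.6% ± 5.16. The part of *Eno1* ranged from 47.8% to 65.8% over the libraries, and its near-identical copy *Eno1b* ranged from 0.228% up to 23.3%, in pair 2. Fragments shared between both genes were left out of both, so these parts are uncertain. All these parts rest on merged exon lengths, and parts by transcript length were not computed. *Ldha* was nearly alone in its family, since *Ldhb* was at 0 in KO-labelled libraries and at 0.944, 0 and 1.20 in WT-labelled ones, and *Ldhc* at 0 in all 6. A value of 0 allows up to 3 fragments, which are 2.72 to 3.61 normalized counts, and covers counting error only.

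Of 18 other isozyme and enzyme genes of the pathway, 10 passed the filter, 9 with a fitted fold change above 0 and 1 below, and 0 were called. Their median log2 fold change was 0.14, against 0.000674 over all genes tested. Counts summed over the 18 genes gave log2 ratios of 0.00345, 0.05 and 0.20 in pairs 1, 2 and 3. The largest difference thus lay in pair 3, and the median was not refitted with a pair left out. *Gpi1*, the isomerase between hexokinase and phosphofructokinase, was at 1997 ± 139 and 1976 ± 72.0 normalized counts. *Pfkp* was at 980 ± 136 and 891 ± 97.6, and *Aldoc* had a log2 fold change of 0.23 with an interval from -0.14 to 0.60. *Eno2* was the 1 gene of the 10 tested here that was higher in all 3 pairs, against 11.7% of all genes tested. Its log2 ratios were 0.06, 0.48 and 0.11, and it is named after its values were seen.

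By RNA, *Slc2a1* was not the most abundant of the genes listed as glucose transporters. RNA levels do not show which of them brings glucose into the cell, and uptake was not measured. *Slc2a6*, which encodes GLUT6, had 1239, 1223 and 1337 normalized counts in KO-labelled libraries, and 1305, 1266 and 1196 in WT-labelled ones. The groups overlapped, and *Slc2a6* held 81.5% ± 0.284 and 81.4% ± 2.33 of the transporter level per kb, against 10.3% ± 1.10 and 10.5% ± 1.64 for *Slc2a1* and 6.44% ± 0.633 and 6.32% ± 0.830 for *Slc2a3*. Of 6 transporter genes beside *Slc2a1*, 3 passed the filter, 2 with a fold change above 0 and 1 below, and 0 were called. The median of the list was 0.01. *Slc2a3*, the GLUT3 gene, had a log2 fold change of 0.04 and *Slc2a8* one of -0.17, and *Slc2a2* was at 0 in all 6 libraries.

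Lactate leaves the cell through monocarboxylate transporters, which need the chaperones basigin and embigin. Of 8 genes of lactate handling, 5 passed the filter, 3 above and 2 below 0, and 0 were called, with a median log2 fold change of 0.09. *Emb* was at 1349 ± 196 and 1272 ± 195 normalized counts, and *Bsg* at 787 ± 21.0 and 859 ± 104. The MCT1 gene *Slc16a1* had 452, 699 and 458 normalized counts in KO-labelled libraries, against 561, 596 and 642 in WT-labelled ones. Its range was wider in KO-labelled libraries and enclosed the others, with a log2 fold change of -0.19 (interval -0.52 to 0.14). *Slc16a3*, the MCT4 gene, was at 12.0 to 30.5 and had a log2 fold change of 0.35 (interval -0.41 to 1.11).

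Fructose 2,6-bisphosphate activates phosphofructokinase, and the PFKFB enzymes make and remove it. All 5 genes of this list passed the filter, 3 above and 2 below 0, with a median of 0.07, and 0 were called. *Pfkfb3* had a log2 fold change of 0.07 (interval -0.25 to 0.38), and *Tigar* was at 93.5 ± 17.2 and 85.3 ± 11.6 normalized counts. *Pfkfb2*, 1 of the 5 genes, did not overlap between groups, against 3.44% of all genes tested on the lower side. It had 57.6, 57.2 and 48.1 in KO-labelled libraries, below 59.5, 72.1 and 59.0 in WT-labelled ones. Its log2 fold change was -0.22, with an interval from -0.62 to 0.17, and that of *Pfkfb1* was 0.51, with an interval from -0.26 to 1.28 (adjusted *p* = 0.970 for both in limma).

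Pyruvate enters mitochondria through the MPC carrier and is oxidised by the pyruvate dehydrogenase complex, which PDK enzymes inhibit. Of 13 genes of this list, 11 passed the filter, 4 above and 7 below 0, with a median of -0.06, and 0 were called. *Pdha1* had log2 ratios of -0.10, -0.06 and -0.04 in the 3 pairs, with an interval of the fold change from -0.21 to 0.09. *Pdhb* was at 498 ± 49.9 and 494 ± 10.6 normalized counts. The log2 fold change of *Pdhx* was -0.29 (interval -0.63 to 0.05) and that of *Mpc2* was -0.18 (interval -0.49 to 0.13). *Pdk4* was at 0 in all 6 libraries.

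The pentose phosphate pathway branches off at glucose 6-phosphate. All 7 of its genes passed the filter with fitted fold changes above 0, the highest being 0.18 for *Rpia* (interval -0.05 to 0.40), and 0 were higher in all 3 pairs or called. Their median was 0.02, and their summed counts gave log2 ratios of -0.03, 0.11 and -0.01 in pairs 1, 2 and 3. The sum was thus higher under the label KO in pair 2 alone. *Tkt* was at 2495 ± 309 and 2470 ± 157 normalized counts, *Pgls* at 1126 ± 69.5 and 1100 ± 45.1, and *G6pdx* at 246 ± 20.6 and 238 ± 3.19. Of 7 gluconeogenesis genes, 3 passed the filter, 1 above and 2 below 0, and 0 were called. *Pck2*, the mitochondrial carboxykinase gene, was at 1240.1 ± 120 and 1249.7 ± 108, while *Pck1*, *Fbp1* and *Fbp2* were at 0 in all 6 libraries. *G6pc3* had a log2 fold change of 0.09 and *Pcx* one of -0.09, and the median of the 3 was -0.01.

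Of the genes for regulators of the pathway, 0 were called. The groups did not overlap for 1 of the 12 tested, on the higher side, against 3.39% of all genes tested. *Hif1a* had 791, 952 and 829 normalized counts in KO-labelled libraries, and 821, 890 and 753 in WT-labelled ones. *Myc* had 320, 381 and 362 in KO-labelled libraries, and 296, 363 and 400 in WT-labelled ones. Both genes overlapped between groups, with log2 fold changes of 0.06 (interval -0.11 to 0.23) and 0.01 (interval -0.19 to 0.22). Of 14 regulator genes, 12 passed the filter, 8 above and 4 below 0, with a median of 0.01. *Mlxip*, which encodes the glucose-sensing factor MondoA, had 352, 304 and 349 normalized counts in KO-labelled libraries, all above the 260, 275 and 266 in WT-labelled ones. Its log2 fold change was 0.32, with an interval from 0.10 to 0.55, but it was not called over all genes tested (adjusted *p* = 0.913 in limma). *Txnip*, a gene that MondoA is known to act on, was at 1550 ± 144 and 1633 ± 233, and *Egln2* had a log2 fold change of 0.10.

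Of 14 genes known to respond to low oxygen, 12 passed the filter, 5 above and 7 below 0, and 0 were called. Their median log2 fold change was -0.01. The groups did not overlap for 1 of the 12, on the lower side, against 3.44% of all genes tested. *Vegfa* was at 924 ± 230 and 986 ± 242 normalized counts and *Ddit4* at 540 ± 75.9 and 564 ± 18.8. *Egln3* and *Ndrg1* had the largest fold changes of this list, 0.71 (interval -0.66 to 2.08) and -0.71 (interval -2.15 to 0.73), at means of 10.3 and 10.6 normalized counts. Without replicate 3 they were 0.11 and -0.13.

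Genes with many near-identical copies may be undercounted, because fragments that fit several places were left out. Of all 75-base windows of the principal transcript, the share that occurs unchanged in an annotated transcript of another gene was 80.3% for *Gapdh*, 67.5% for *Pgk1* and 65.4% for *Eno1*. It was 15.6% for *Pkm*, 5.38% for *Ldha*, 2.48% for *Tpi1* and 1.49% for *Aldoa*, and 0% for *Slc2a1*, *Hk2* and *Pfkl*. *Gapdh* had 178 annotated copies, of which 136 had a fragment, and the 10 genes had 215 in all, of which 6 had a mean of at least 10. *Gapdh*, *Pgk1* and *Eno1* are thus lower bounds, and their places in the order of levels are uncertain. In *Pkm*, 15.3% of the exon bases also belong to *Gm49759* on the same strand. With its shared windows, *Pkm* may thus be undercounted too, and its place beside *Aldoa* is uncertain.

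Of the 6 copies with a mean of at least 10, 3 were seen almost only in pair 2. *Gm13394*, a processed pseudogene of *Gapdh* on chromosome 2 at 28933610-28934609 (reverse strand), had 226 and 229 normalized counts in the libraries of pair 2 labelled KO and WT. It had 2.83 and 0.908 in KO-labelled libraries of pairs 1 and 3, and 0.944 and 3.61 in WT-labelled ones. In pair 2 it therefore stood at 8.85% and 9.72% of the level of *Gapdh*, and in the other 4 libraries at 0.0334% to 0.136%. With the 178 copies added, *Gapdh* was no longer lowest in the library labelled WT of pair 2. It had 2709 there, against 2611 and 2618 in the libraries of pair 1 labelled KO and WT. The log2 ratio of *Gapdh* in pair 2 was then 0.08, against 0.12 without the copies. *Gm4735*, a processed pseudogene of *Eno1* on chromosome 2 at 80837141-80838442 (forward strand), had 73.4 and 80.5 in pair 2. Its other 4 libraries had 0.944 and 0.908 (labelled KO) and 4.72 and 1.20 (labelled WT). Both genes were high in pair 2 whatever the label, and the cause was not tested.

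A stretch of coding sequence shows how little separates such a copy from its gene. Over 1000 coding bases, *Gm13394* differs from *Gapdh* by 1 substitution, A346C, and over 1302 coding bases *Gm4735* differs from *Eno1* by 5, the first being T726C. Positions count from 1 at the A of the start codon, with the base of the glycolysis gene first, and the differing base is in capitals in the 75-base windows below (Gencode vM21 transcripts, GRCm38, 5′ to 3′ in the sense of the gene). The *Gapdh* window spans an exon junction between 125162979 and 125163151 of chromosome 6, and that of its copy lies at chr2:28934227-28934301. The *Eno1* window lies in 1 exon at chr4:150246591-150246665, and that of its copy at chr2:80837829-80837903. A fragment within these coding bases that covers no differing base fits both places.
Gapdh: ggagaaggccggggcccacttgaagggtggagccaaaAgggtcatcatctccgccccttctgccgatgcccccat
Gm13394: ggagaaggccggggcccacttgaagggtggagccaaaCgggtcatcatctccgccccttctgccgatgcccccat
Eno1: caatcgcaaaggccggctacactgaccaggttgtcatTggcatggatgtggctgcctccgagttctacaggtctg
Gm4735: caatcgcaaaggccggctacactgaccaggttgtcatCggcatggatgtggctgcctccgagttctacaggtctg

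*Eno1b*, a protein-coding copy of *Eno1*, had 131 and 104 normalized counts in pair 2, and 1.89, 0.908, 0.944 and 1.20 in the other libraries. Over 1305 coding bases it differs from *Eno1* at 8 positions, and it shares all 5 substitutions of the pseudogene. Its log2 fold change between labels was 0.23, with an interval from -0.83 to 1.29. With the 7 copies added, *Eno1* reached 985 and 941 in pair 2, of which the copies were 22.1% and 21.4%. In the other 4 libraries the sum was 694.6 to 757, of which the copies were 2.19% to 3.99%. The remaining copies with a mean of at least 10 did not set pair 2 apart: *Gm7213* (a copy of *Eno1*) was at 12.4 to 23.6, *3000002C10Rik* (*Gapdh*) at 7.63 to 20.8 and *Gm6560* (*Pkm*) at 19.1 to 38.7.

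**Figure D3:**
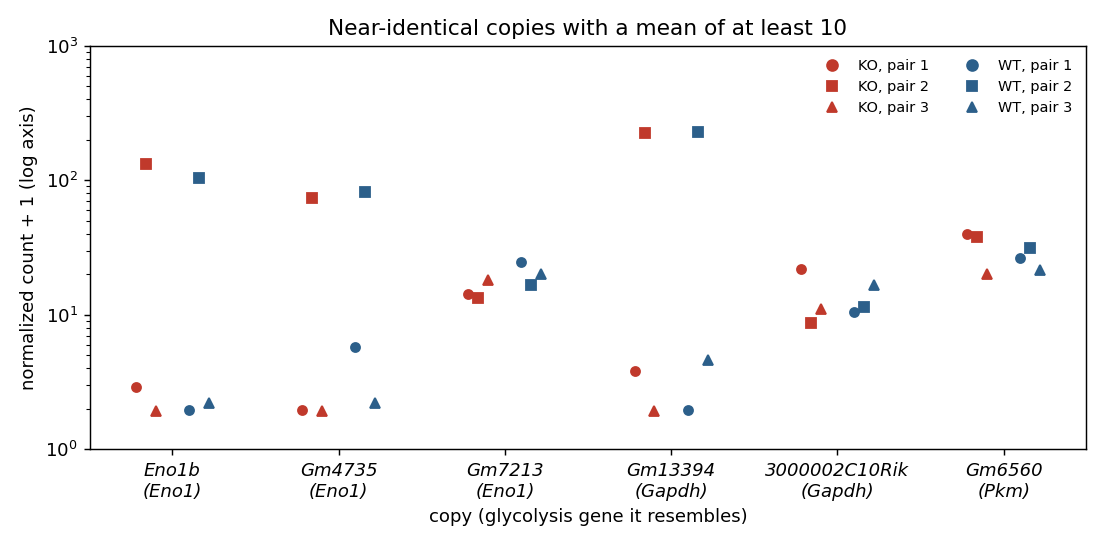
Normalized count plus 1 (log axis) of the 6 near-identical copies with a mean of at least 10, in KO-labelled and WT-labelled libraries, with one marker shape per pair and the glycolysis gene each resembles in parentheses. *Eno1b*, *Gm4735* and *Gm13394* have counts above 70 in both libraries of pair 2 and under 5 in the other 4, before 1 is added.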

How the data were processed

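Libraries were sequenced in pairs of 75-base reads. The authors trimmed reads with cutadapt 1.18, aligned them with STAR 2.6.1a to GRCm38, counted properly paired fragments of the right strand with featureCounts (Subread 1.6.3, Gencode vM19, mapping quality of at least 10) and scaled them with the size factors of DESeq2 1.22. What they deposited is a signal, the normalized count per gene and library. Such scaling hides any change common to most transcripts. 0 ERCC spike-in entries were listed.

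Whole fragments were recovered, since 100% of the values above 0 were whole multiples (within 0.01) of the step of their library. Symbols, positions and exons came from Gencode vM21, which matched 54409 of 54446 identifiers. Copies were annotated transcripts found with BLASTN 2.17.0 at 90% identity or more over 50% of their length or more, outside the locus of the gene. A copy not annotated was not searched.

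limma 3.58.1 (R 4.3.3, eBayes with a trend) was fitted on log2(normalized count + 1) over genes with a mean of at least 10, two-sided, with the pair as a block and Benjamini-Hochberg adjustment over 12322 genes at a threshold of 0.05. The study states that a replicate number is a littermate pair, and the deviations of same-numbered libraries correlated at 0.328, 0.685 and 0.170. Fold changes of low genes depend on the pseudocount (*Egln3* 0.97, 0.71 and 0.28 at 0.5, 1 and 5). The recovered fragments were also tested in edgeR 4.0.16 and DESeq2 1.42.0. The code was tested on simulated data.

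The members, the gene lists and the tests were chosen with earlier results of these data known. Every glycolysis gene is named. Of each other list, the genes named are those with the highest means and the largest absolute fold changes, up to 2 of each, and 1 gene that this rule picks is not reported here. Others named are *Tent5c*, *Actb*, *Hif1a*, *Myc*, copies with a mean of at least 10 and the 5 genes most alike. As genes seen in pair 2 alone, *H2-Ea-ps*, *H2-Q1*, *Zfp990*, *Zfp979* and *Baiap2l1* were named after their values were seen. Genes given at 0, *Hk1*, *Hk3*, *Pfkm*, *Eno2*, *Ldhb*, *Cd3e*, *Cd79a*, *Fcer2a*, *Klf1* and *Gm49759* were added after their values were seen, for the make-up of a family or list.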

Additional observations from a re-analysis of the deposited data

How the results depend on the processing

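Under 14 alternatives each (other pseudocounts, filters and scalings, no block, other tools, a replicate left out, copies added), the 140 fold changes of the glycolysis genes stayed on the same side of the threshold, with 0.815 as their lowest adjusted *p* in limma, edgeR or DESeq2. The sign turned in 10 of them, none beyond 0.05 from 0. Other filters and a fit without the block cannot change a fold change fitted in limma, only its *p*. Adding copies cannot change *Slc2a1*, *Hk2* or *Pfkl*, which have none. Those values were thus fixed in advance and are no check of the sign. Without the replicate block, limma called 0 genes lower and 0 higher, so the paired and unpaired fits differed in no call. The median log2 fold change of the 10 genes stayed at -0.00200, as it must where every pair is complete. DESeq2 called 22 genes lower and 1 higher. With a replicate left out, limma called 0 to 168 lower and 0 to 3 higher, the 168 without replicate 1, and 1 to 5 of the 10 genes were lower and 1 to 2 higher in both remaining pairs, where fewer pairs had to share a direction. With quantile normalization, 1 was higher in all 3 pairs, and *Slc2a1* (0.00646) and *Ldha* (0.0205) turned sign. With copies added, *Eno1* stood at -0.00307.

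With a replicate left out, log2 fold changes ranged from -0.0323 to 0.0185 (*Slc2a1*), -0.00133 to 0.12 (*Hk2*), -5.28e-05 to 0.15 (*Pfkl*), -0.0881 to 0.0260 (*Tpi1*), -0.0325 to 0.0846 (*Pgk1*), -0.0225 to 0.0180 (*Eno1*), -0.0602 to 0.0480 (*Ldha*), -0.0175 to 0.0948 (*Slc2a3*), -0.00317 to 0.10 (*G6pdx*), -0.00955 to 0.19 (*G6pc3*), -0.26 to 0.12 (*Pcx*), -0.0464 to 0.36 (*Ebf1*), -0.91 to 0.0858 (*Jchain*) and -1.28 to 0.62 (*Lyz2*, which edgeR put at 0.0179). The cause was not tested. The other genes run kept their sign, but all of them except *Pfkfb2*, *Mlxip* and *Cr2* moved by over 1.5 times: -0.0591 to -0.0252 (*Aldoa*), 0.0115 to 0.0751 (*Gapdh*), -0.17 to -0.0285 (*Pkm*), 0.0622 to 0.45 (*Eno1b*), 0.0577 to 0.44 (*Aldoc*), -0.36 to -0.0267 (*Slc2a8*), 0.12 to 0.49 (*Slc16a3*), -0.40 to -0.0408 (*Slc16a1*), 0.22 to 0.79 (*Pfkfb1*), -0.47 to -0.15 (*Pdhx*), -0.26 to -0.0217 (*Mpc2*), 0.10 to 0.27 (*Rpia*), 0.0584 to 0.14 (*Egln2*), -1.43 to -0.13 (*Ndrg1*), 0.11 to 1.12 (*Egln3*), -0.44 to -0.16 (*Mzb1*), -0.26 to -0.0944 (*Thy1*), -0.69 to -0.33 (*Cd68*), 0.0624 to 0.26 (*Birc5*) and 0.0359 to 0.23 (*Mki67*). *Egln3* was at 0.39 in edgeR and *Eno1b* at 0.55 with quantile normalization and 0.35 in DESeq2, against 0.71 and 0.23. *Tent5c*, *Actb*, *Hif1a*, *Myc* and genes named for a high mean alone or after their values were seen were not run. The median over the 10 genes ranged from -0.0147 to 0.0182 with a replicate left out and was 0.0202 with quantile normalization. The log2 ratio of the share of fragments ranged from -0.0331 to 0.0443, so both turned sign within their spread over pairs. Of the 10 genes, depth limits *Slc2a1* most, with 142 to 214 fragments a library.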

Other observations

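Beside the copies of glycolysis genes, other genes were seen in pair 2 alone. Genes at 50 or more normalized counts in both libraries of a pair and at 5 or less in the other 4 numbered 12 in pair 2, and 0 in pairs 1 and 3, by limits chosen after the values were seen. Of these 12, 5 are annotated as pseudogenes (*Gm13394* and *Gm4735* among them), 6 as protein-coding genes (*Eno1b* among them) and 1 as another type. *H2-Ea-ps*, of the major histocompatibility complex on chromosome 17, had 3059 and 3443 normalized counts in pair 2 and at most 0.944 in the other 4 libraries. *H2-Q1* had 117 and 111, against 0 in the other 4. *Zfp990* and *Zfp979*, on chromosome 4 like *Eno1*, had 281 and 277 and 265 and 293, against at most 1.89 and 1.82. *Baiap2l1*, on chromosome 5, had 329 and 424, against at most 1.20. What sets that pair apart was not tested.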
